A study of Mus musculus with 16 samples.

Results

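The genes described here encode the machinery that carries newly made secretory proteins into the endoplasmic reticulum (ER), folds and modifies them there, and ships them towards the Golgi. They are 51 of 31274 genes in the table, listed by function and not by measured values, but with earlier results of these data known. All 51 were among the 15988 genes that passed the minimum FPKM for testing. RNA was sequenced from the seminal vesicles (SVs) of male C57BL/6 mice at week 5, in 16 samples of 4 groups with 4 samples each. WT-veh and WT-DES were wild-type mice given corn oil or diethylstilbestrol (DES), a synthetic oestrogen, injected under the skin of each newborn pup, 2 µg daily, from day 1 to day 5. αERKO-veh and αERKO-DES were mice with a global disruption of *Esr1*, the gene of oestrogen receptor α, given the same injections. Each comparison thus concerns exposure in the newborn and expression at puberty. RNA extraction is described for 3 pools of mice in WT-DES and for individual mice in the other groups, against 4 sequenced samples in each group. The distinct pools behind the 4 WT-DES samples may thus be fewer than 4, so the p-values measure only the spread between these samples, part of which may be technical.

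A protein with a signal peptide is bound during its synthesis by the signal recognition particle, handed to its receptor on the ER membrane and threaded through the Sec61 translocon. Signal peptidase removes the signal peptide, oligosaccharyltransferase adds N-glycans, chaperones and disulfide isomerases fold the chain, and COPII vesicles carry the folded product out of the ER. The unfolded protein response adjusts this capacity to the load through the sensors IRE1, ATF6 and PERK, and ER-associated degradation (ERAD) removes what does not fold. The SV epithelium is a highly active secretory tissue whose androgen-dependent products form most of the volume of the ejaculate.

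*Esr1* was lower in every αERKO sample (αERKO-veh 1.30 to 1.75 FPKM, αERKO-DES 0.910 to 1.64) than in every WT sample (WT-veh 2.81 to 4.55, WT-DES 8.74 to 19.6). All 8 markers of the epithelium were present in each group. Smooth muscle RNA set WT-DES sample 1 apart, with a summed level of 2938 FPKM over 5 markers against 735 to 1119 in the 3 other WT-DES samples. Skeletal muscle and adipose markers varied widely between the samples of most groups, from 608 to 2317 and 145 to 1318 FPKM in αERKO-veh. Summed over all genes, FPKM ranged from 590446 to 652708 across WT-veh and from 375207 to 437619 across WT-DES. When the 20 highest genes were left out and the rest scaled to equal totals, the log2 change of the median tested gene with DES in WT moved from −0.01 to 0.38, and levels below are FPKM as deposited unless another scale is named.

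In WT SVs, nearly the whole list was lower after neonatal DES. Relative to WT-veh, 49 of the 51 genes fell and 0 rose in WT-DES at an adjusted p of at most 0.05 (limma on log2(FPKM + 1), Benjamini-Hochberg over 15988 genes), where 37.3% of all tested genes fell and 36.4% rose. The median log2 change was −1.52 over the 51 genes and −0.01 over all tested genes, and single genes ran from −3.40 (*Sdf2l1*) to 0.08 (*Ero1l*). All 49 also had a WT-veh mean at least 1.5 times the WT-DES mean, which 23.9% of all tested genes passed in the same direction. For 50 genes every WT-DES sample lay below every WT-veh sample, as it did for 34.0% of all tested genes. The genes outside the call were *Ero1l*, an ER oxidase, and *Ddit3*, a stress-induced transcription factor. In RNA from whole SVs, fewer cells of a type and less RNA per cell cannot be told apart.

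**Figure D1:**
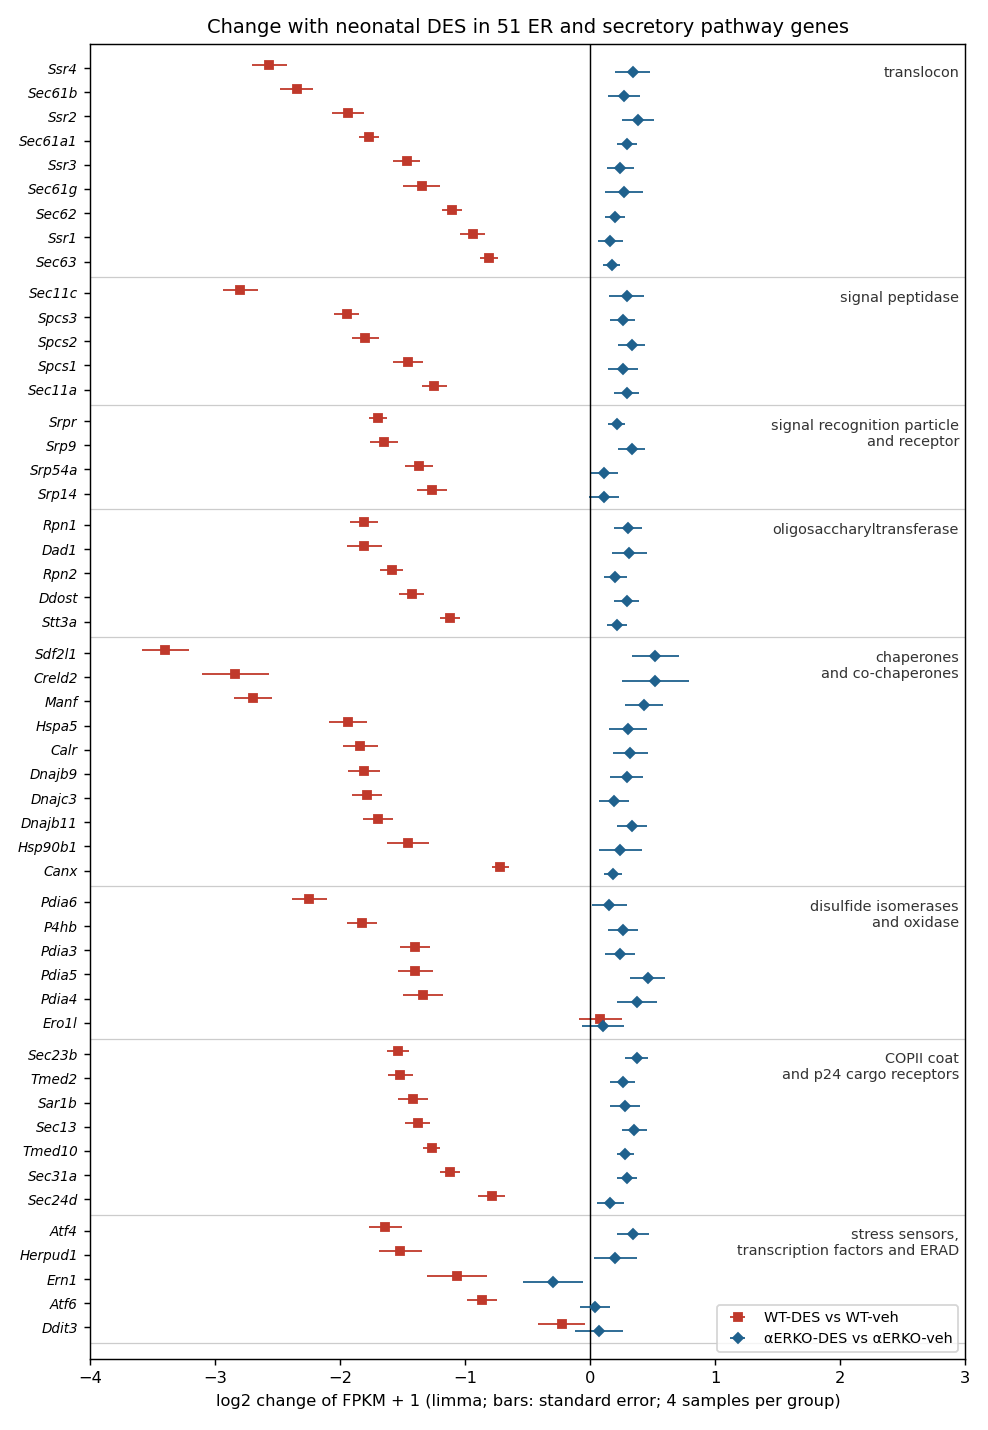
Log2 change of FPKM + 1 with neonatal DES for each of the 51 genes, grouped by role and ordered by the change in WT; squares are WT-DES relative to WT-veh, diamonds αERKO-DES relative to αERKO-veh, and bars the limma standard error with 4 samples per group. The squares lie left of zero for all genes but Ero1l (0.08), with Sdf2l1 farthest at −3.40, while all diamonds but that of Ern1 (−0.30) lie between 0.04 and 0.52.

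The pathway begins in the cytosol with the signal recognition particle. The 3 genes of the particle in the list, *Srp9*, *Srp14* and *Srp54a*, and *Srpr* of its receptor all fell in WT-DES, by 1.27 to 1.70 on the log2 scale. *Srp14* encodes a subunit of the domain that pauses translation, and was the most abundant of them. *Srp14* was at 257, 237, 269.8 and 252 FPKM in the WT-veh samples and at 129.98, 95.2, 92.6 and 103 in WT-DES. *Srp14* was at 218, 165, 216 and 209 FPKM in αERKO-veh and at 254, 212, 217 and 190.2 in αERKO-DES. WT-DES sample 1 was the highest of its group, yet the WT-DES samples stayed below all others. *Srp14* fell by 1.27 on the log2 scale (SE 0.12, adjusted p = 2.26e-07). *Srpr*, which encodes the α subunit of the receptor on the ER membrane, overlaps 3 coding genes on the opposite strand. *Srpr* was at 127, 129, 129 and 124 FPKM in the WT-veh samples and at 40.9, 35.8, 36.7 and 40.5 in WT-DES. *Srpr* was at 138, 126.33, 139.8 and 129 FPKM in αERKO-veh and at 144, 143, 172 and 159 in αERKO-DES. The groups did not overlap between WT-veh and WT-DES. *Srpr* fell by 1.70 on the log2 scale (SE 0.07, adjusted p = 1.86e-10), the largest fall of the 4. *Srp54a* has a near-identical neighbouring copy, so its level is uncertain.

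At the translocon, all 9 genes fell. The channel subunits *Sec61a1*, *Sec61b* and *Sec61g* fell by 1.77, 2.35 and 1.35 on the log2 scale. *Sec62* and *Sec63*, which help chains enter that are not delivered by the particle, fell by 1.11 and 0.81. Of the 4 subunits of the translocon-associated protein complex, *Ssr4* (chromosome X, 73787028 to 73790830, plus strand of GRCm38, GENCODE M21) was the most abundant gene of the group. *Ssr4* was at 903, 818, 930.4 and 894 FPKM in the WT-veh samples and at 145, 133, 153 and 166 in WT-DES. *Ssr4* was at 752, 461, 635 and 584 FPKM in αERKO-veh and at 850.1, 679.7, 889 and 644 in αERKO-DES. The WT-DES values were far below the WT-veh values, and αERKO-veh lay below WT-veh without overlap. *Ssr4* fell by 2.57 on the log2 scale (SE 0.14, adjusted p = 1.76e-09), and its mean was 5.94-fold lower. *Ssr2*, *Ssr3* and *Ssr1* of the same complex fell by 1.94, 1.47 and 0.94, so its subunits did not fall by the same amount. *Sec63* was at 49.8, 50.6, 46.9 and 41.0 FPKM in the WT-veh samples and at 27.9, 24.4, 26.2 and 26.8 in WT-DES. *Sec63* was at 55.1, 48.8, 54.2 and 50.5 FPKM in αERKO-veh and at 56.9, 55.3, 64.1 and 59.7 in αERKO-DES. The WT-DES samples were the lowest for *Sec63* too, with a change of −0.81 (SE 0.07, adjusted p = 1.53e-07), the smallest at the translocon.

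All 5 signal peptidase genes fell in WT-DES. The enzyme has alternative catalytic subunits, encoded by *Sec11a* and *Sec11c*. *Sec11c* was at 514, 533, 576 and 552 FPKM in the WT-veh samples and at 67.2, 67.0, 84.7 and 92.5 in WT-DES. *Sec11c* was at 486, 323, 463 and 399.8 FPKM in αERKO-veh and at 540.2, 459, 578 and 451 in αERKO-DES. *Sec11a* was at 165, 174, 188 and 177 FPKM in the WT-veh samples and at 70.5, 70.2, 75.4 and 77.7 in WT-DES. The fall was thus far larger for *Sec11c*, and in WT-DES the catalytic subunits had nearly equal levels. *Sec11a* was at 159.7, 119, 157 and 147 FPKM in αERKO-veh and at 195, 163, 196 and 162 in αERKO-DES. *Sec11c* fell by 2.80 on the log2 scale (SE 0.14, adjusted p = 7.58e-10), a 6.99-fold lower mean. *Sec11a* fell by 1.25 on the log2 scale (SE 0.10, adjusted p = 3.04e-08). The remaining subunits *Spcs1*, *Spcs2* and *Spcs3* fell by 1.46, 1.80 and 1.95. *Spcs1*, *Spcs2* and *Spcs3* overlap coding genes on the opposite strand, and *Sec11a* overlaps *Nmb* on its own strand. The same holds on the opposite strand for *Rpn2*, *Pdia3* and *Pdia6* and on its own strand for *Manf*, so the levels of these genes are uncertain. Whether the counting used strand is not given in the sources used here.

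The 5 genes of oligosaccharyltransferase, which attaches N-glycans to chains as they enter the ER, fell by 1.12 to 1.81 on the log2 scale. *Dad1*, a small core subunit, had the highest level of them. *Dad1* was at 499.8, 481, 505 and 549.9 FPKM in the WT-veh samples and at 158, 122, 144 and 158 in WT-DES. *Dad1* was at 422, 318, 462 and 368 FPKM in αERKO-veh and at 562, 458, 545 and 385 in αERKO-DES. Every WT-DES sample was below all samples of the other groups. *Dad1* fell by 1.81 on the log2 scale (SE 0.14, adjusted p = 3.02e-08). *Stt3a* encodes the catalytic subunit that works at the translocon. *Stt3a* was at 152, 166, 153 and 141 FPKM in the WT-veh samples and at 66.4, 64.0, 69.6 and 80.2 in WT-DES. *Stt3a* was at 167, 157, 176 and 164 FPKM in αERKO-veh and at 179, 176, 213 and 201 in αERKO-DES. Its groups were also separate in WT, with the smallest change of the complex, −1.12 (SE 0.08, adjusted p = 2.54e-08). *Rpn1*, *Rpn2* and *Ddost* fell by 1.81, 1.59 and 1.43.

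The 10 chaperones and co-chaperones fell by 0.72 to 3.40 on the log2 scale. *Hspa5* (chromosome 2, 34771970 to 34777547, plus strand) encodes BiP, the HSP70 chaperone of the ER lumen that also holds the stress sensors inactive. *Hspa5* was at 560.2, 613, 611 and 599.9 FPKM in the WT-veh samples and at 162, 139, 150.4 and 167 in WT-DES. *Hspa5* was at 624, 495, 859.6 and 550.0 FPKM in αERKO-veh and at 789.6, 701, 932 and 650.4 in αERKO-DES. WT-DES was the lowest group without overlap, while αERKO-veh sample 3 and αERKO-DES sample 3 were the highest. *Hspa5* fell by 1.94 on the log2 scale (SE 0.15, adjusted p = 3.57e-08), a 3.85-fold lower mean. *Sdf2l1* (chromosome 16, 17130138 to 17132383, minus strand), whose product works with the BiP partner encoded by *Dnajb11*, fell the most of all 51 genes. *Sdf2l1* was at 220.4, 294, 271 and 310.2 FPKM in the WT-veh samples and at 28.6, 21.5, 24.4 and 25.4 in WT-DES. *Sdf2l1* was at 233, 182, 381 and 212 FPKM in αERKO-veh and at 389, 329.8, 411 and 274 in αERKO-DES. Its WT-DES samples lay close together and far below the rest. *Sdf2l1* fell by 3.40 on the log2 scale (SE 0.19, adjusted p = 2.1e-09), with means of 274 ± 39.2 and 25.0 ± 2.91 FPKM (SD, n = 4). *Creld2* and *Manf*, which encode stress-induced proteins of the ER lumen, followed with log2 changes of −2.84 and −2.70. The co-chaperones of BiP encoded by *Dnajb9*, *Dnajb11* and *Dnajc3* fell by 1.81, 1.70 and 1.79, and *Hsp90b1*, the HSP90 chaperone of the ER, by 1.46. *Dnajb9* was at 84.3, 80.7, 95.3 and 76.2 FPKM in the WT-veh samples and at 21.04, 20.3, 23.1 and 29.5 in WT-DES. *Dnajb9* was at 100.1, 74.6, 99.7 and 85.2 FPKM in αERKO-veh and at 108, 95.0, 135 and 104 in αERKO-DES. *Dnajb9* WT-DES samples were all below the other groups (SE 0.13, adjusted p = 1.97e-08).

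The lectin chaperones that hold N-glycosylated proteins, encoded by *Calr* and *Canx*, differed in the size of their change. *Calr* was at 613, 751, 660.4 and 771 FPKM in the WT-veh samples and at 203, 174, 194 and 204 in WT-DES. *Calr* was at 625, 529, 822 and 621 FPKM in αERKO-veh and at 907, 709, 949.9 and 678 in αERKO-DES. *Canx* was at 119.8, 126.34, 123 and 117 FPKM in the WT-veh samples and at 76.9, 67.1, 74.7 and 76.0 in WT-DES. WT-DES was lowest for each, by a wide margin for the soluble *Calr* product and a narrow one for the membrane-bound *Canx* product. *Canx* was at 129.81, 118, 145 and 122 FPKM in αERKO-veh and at 153, 135, 157 and 139 in αERKO-DES. *Calr* fell by 1.84 on the log2 scale (SE 0.14, adjusted p = 3.83e-08). *Canx* fell by 0.72 on the log2 scale (SE 0.07, adjusted p = 6.67e-07), the smallest fall among the 49 genes, and with quantile normalization its change was −0.14 and no longer passed the threshold.

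The ER stress response element (ERSE), through which ATF6 and XBP1 act on chaperone genes, was looked for in the promoters. It was searched as CCAAT and CCACG with 9 bases between them, on both strands, in RefSeq windows of GRCm38.p6 from 250 bases before to 50 after each start. Of the 51 genes, 43 had a window, and those not in the table were *Sec61a1*, *Ssr2*, *Spcs3*, *Sec11c*, *Manf*, *Ero1l*, *Tmed2* and *Atf6*. An exact match was found for 7 of the 43 genes (16.3%), against 37 of 27025 genes in the table (0.137%). The matches are shown because the genes that carry them include the central chaperones. Since the element acts on chaperone genes, which the list was made to hold, the shares of 16.3% and 0.137% do not bear on DES. Each line gives the match with 5 bases on each side, 5′ to 3′ along the gene, and the capitals mark the outer parts of the element, which read as CGTGG and ATTGG where the match is on the opposite strand.
Hspa5, chr2:34772020-34772048, plus strand: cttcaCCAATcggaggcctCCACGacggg
Hsp90b1 distal, chr10:86705633-86705661, minus strand: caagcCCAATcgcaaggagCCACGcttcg
Hsp90b1 proximal, chr10:86705528-86705556, minus strand: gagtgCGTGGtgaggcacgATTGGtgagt
Calr, chr8:84847070-84847098, minus strand: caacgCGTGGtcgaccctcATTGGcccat
Canx, chr11:50325795-50325823, minus strand: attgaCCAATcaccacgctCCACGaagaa
Dnajc3, chr14:118937822-118937850, plus strand: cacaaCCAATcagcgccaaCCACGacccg
Creld2, chr15:88819515-88819543, plus strand: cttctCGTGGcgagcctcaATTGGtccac
Pdia6, chr12:17266486-17266514, plus strand: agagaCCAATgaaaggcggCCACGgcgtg
In *Hsp90b1* the element occurred at 212 and at 107 bases before the start, and in the other 6 genes it began between 65 (*Hspa5*) and 162 (*Calr*) bases before it. The *Hspa5* match lies inside the gene as GENCODE M21 draws it, which starts farther upstream. The 7 genes had changes in WT-DES from −2.84 (*Creld2*) to −0.72 (*Canx*) with a median of −1.84, and the other 36 genes with a window from −3.40 (*Sdf2l1*) to −0.23 (*Ddit3*) with a median of −1.43. All of the 7 but *Pdia6* were among the chaperones and co-chaperones, a group with a median change of −1.82. Element and role thus cannot be told apart here. The related element ERSE-II, ATTGG and CCACG with 1 base between them, was matched in *Dnajb11* and *Herpud1* and in 12 of the 27025 genes (0.0444%). The core TGACGTG of the unfolded protein response element was matched in *Srpr*, *Hspa5* and *Sec24d*, 6.98% of the 43 genes, and in 2.22% of the 27025. The matches describe the sequence and are not evidence of binding.

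Of the 6 genes of disulfide formation, the 5 isomerases fell and the oxidase *Ero1l* did not pass the test. *P4hb*, which encodes protein disulfide isomerase, was the most abundant. *P4hb* was at 799, 839, 806 and 819.9 FPKM in the WT-veh samples and at 234, 197, 229.8 and 256 in WT-DES. *P4hb* was at 757, 606, 788 and 699 FPKM in αERKO-veh and at 889, 778, 992 and 753 in αERKO-DES. The WT-DES samples were far below every other sample. *P4hb* fell by 1.83 on the log2 scale (SE 0.12, adjusted p = 4.74e-09). *Pdia6* encodes an isomerase that acts together with BiP. *Pdia6* was at 491, 527, 518 and 539.7 FPKM in the WT-veh samples and at 115, 90.8, 108 and 121 in WT-DES. *Pdia6* was at 487, 372, 617.62 and 451 FPKM in αERKO-veh and at 587, 491, 602 and 443 in αERKO-DES. WT-DES was again lowest, and *Pdia6* had the largest fall of the family at 2.25 (SE 0.14, adjusted p = 5.32e-09). *Pdia3*, the partner of the lectin chaperones, and *Pdia4* and *Pdia5* fell by 1.40, 1.34 and 1.40. *Ero1l* (chromosome 14, 45283087 to 45318771, minus strand), which reoxidizes the isomerases and is known to be induced by hypoxia, was the gene of this group with the lowest level. *Ero1l* was at 8.31, 9.55, 8.30 and 7.46 FPKM in the WT-veh samples and at 14.9, 6.93, 7.57 and 7.88 in WT-DES. *Ero1l* was at 8.65, 8.51, 9.60 and 8.53 FPKM in αERKO-veh and at 8.38, 8.70, 11.3 and 9.80 in αERKO-DES. WT-DES sample 1 was the highest of the 16 samples and the other WT-DES samples overlapped WT-veh. The change of *Ero1l* was 0.08 (SE 0.17, adjusted p = 0.689), and −0.15 without WT-DES sample 1, so no change was detected in either direction on this scale. With equal totals without the 20 highest genes it rose by 0.47, a scale on which 54.9% of all tested genes rose.

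All 7 genes of the COPII coat and its cargo receptors fell. *Sar1b*, which encodes the GTPase that starts the coat, fell by 1.42. In the inner coat, *Sec23b* fell the most of the group and *Sec24d*, whose product binds cargo, the least. *Sec23b* was at 70.4, 79.2, 74.8 and 75.6 FPKM in the WT-veh samples and at 25.4, 22.3, 24.8 and 28.7 in WT-DES. *Sec23b* was at 75.9, 77.5, 96.6 and 79.9 FPKM in αERKO-veh and at 102, 96.9, 120.3 and 107 in αERKO-DES. *Sec24d* was at 50.5, 53.9, 47.6 and 43.2 FPKM in the WT-veh samples and at 29.1, 24.9, 26.6 and 30.3 in WT-DES. WT-DES was the lowest group for each gene, and for *Sec24d* every αERKO sample lay above every WT sample. *Sec24d* was at 61.3, 73.0, 74.0 and 67.9 FPKM in αERKO-veh and at 63.3, 71.6, 85.0 and 90.6 in αERKO-DES. *Sec23b* fell by 1.54 on the log2 scale (SE 0.09, adjusted p = 2.9e-09). *Sec24d* fell by 0.79 on the log2 scale (SE 0.11, adjusted p = 1.07e-05). *Sec13*, part of the outer coat and also of the nuclear pore, had the highest level. *Sec13* was at 152, 166, 171 and 176 FPKM in the WT-veh samples and at 73.9, 56.4, 59.4 and 64.0 in WT-DES. *Sec13* was at 149, 127, 161 and 134 FPKM in αERKO-veh and at 179, 177, 209 and 162 in αERKO-DES. The WT-DES samples were below all others, and *Sec13* fell by 1.38 (SE 0.10, adjusted p = 1.73e-08), beside 1.12 for its partner *Sec31a*. *Tmed2* and *Tmed10*, which encode p24 receptors that load cargo into the vesicles, fell by 1.52 and 1.27.

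**Figure D2:**
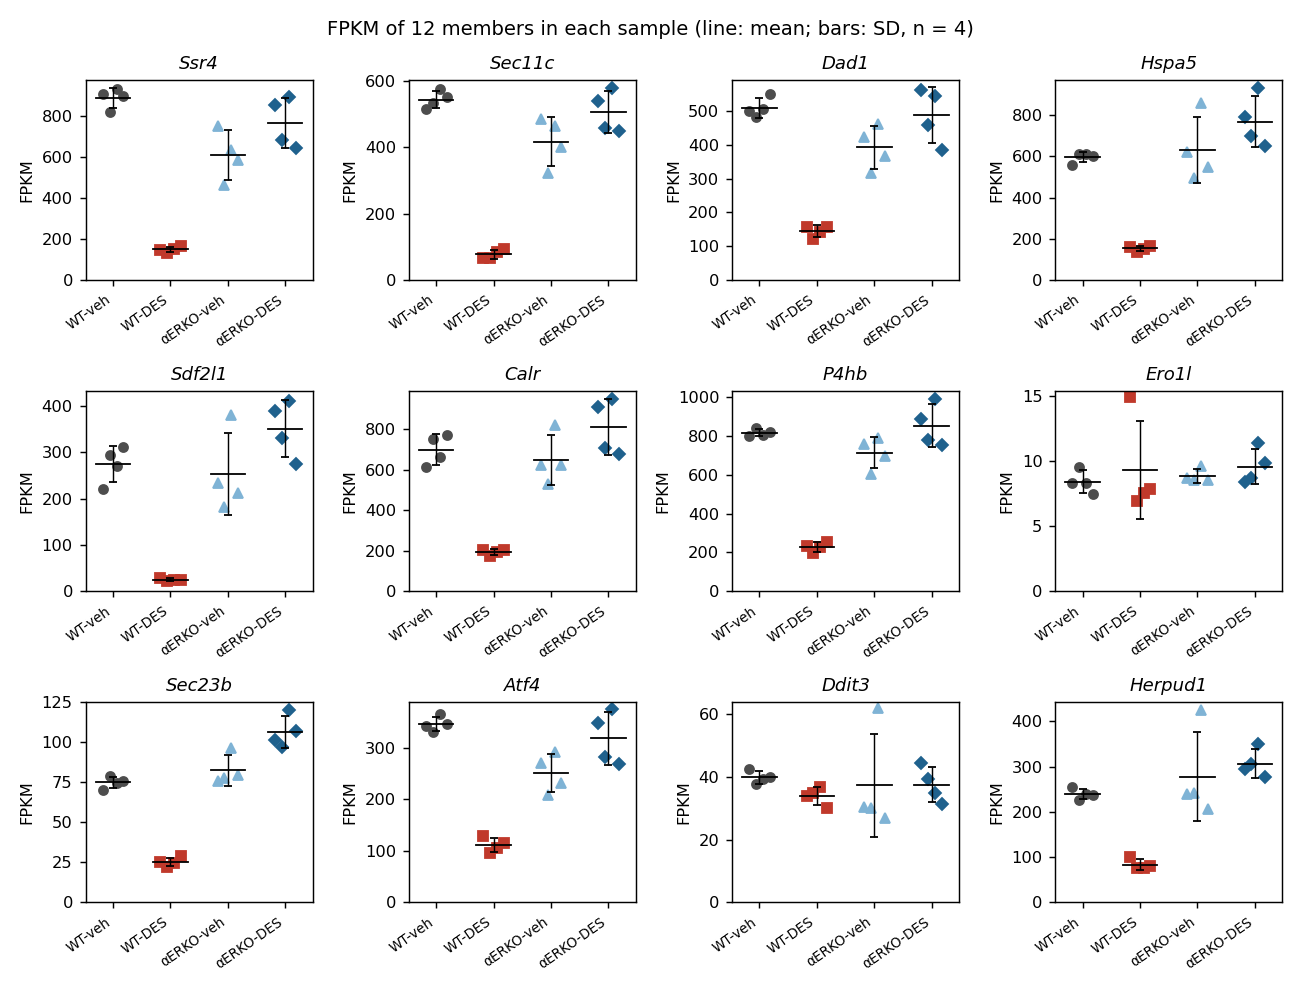
FPKM of 12 of the genes in each of the 16 samples, by group; points are samples, the horizontal line is the mean and the bars the SD with n = 4. In WT-DES the samples lie below all other samples for every gene shown except Ero1l, where sample 1 is at 14.9 FPKM, and Ddit3, where WT-DES ranges from 29.9 to 36.8 FPKM.

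Of the 5 genes of the stress sensors, their transcription factors and ERAD, 4 fell in WT-DES and *Ddit3* did not pass the test. *Ern1* encodes IRE1α, the sensor that splices *Xbp1* mRNA. *Ern1* was at 36.6, 44.1, 31.9 and 20.4 FPKM in the WT-veh samples and at 12.6, 12.8, 16.3 and 17.9 in WT-DES. *Ern1* was at 49.3, 68.4, 60.2 and 56.4 FPKM in αERKO-veh and at 28.4, 48.4, 58.98 and 59.7 in αERKO-DES. WT-veh was widely spread for this gene, from 20.4 to 44.1 FPKM, yet did not overlap WT-DES, and αERKO-veh lay above it. *Ern1* fell by 1.07 on the log2 scale (SE 0.24, adjusted p = 0.000874). *Atf6*, the gene of the sensor that is cleaved in the Golgi into a transcription factor, behaved alike. *Atf6* was at 25.3, 25.0, 24.4 and 19.8 FPKM in the WT-veh samples and at 12.2, 12.8, 12.1 and 12.8 in WT-DES. *Atf6* was at 27.9, 34.9, 37.5 and 31.9 FPKM in αERKO-veh and at 26.9, 32.0, 35.7 and 41.9 in αERKO-DES. The WT-DES values lay close to each other and below all others. *Atf6* fell by 0.87 on the log2 scale (SE 0.12, adjusted p = 1.21e-05). *Atf4* encodes the transcription factor translated when PERK or another kinase phosphorylates eIF2α. *Atf4* was at 343, 331, 365 and 346 FPKM in the WT-veh samples and at 128, 96.8, 105 and 114 in WT-DES. *Atf4* was at 271, 209, 292 and 232 FPKM in αERKO-veh and at 348, 281, 375 and 269 in αERKO-DES. *Atf4* fell by 1.64 on the log2 scale (SE 0.13, adjusted p = 3.33e-08), and its αERKO-veh samples were also below WT-veh. *Herpud1*, an ERAD component and a common stress target, was highest in αERKO-veh sample 3. *Herpud1* was at 255, 227, 239 and 237 FPKM in the WT-veh samples and at 101, 76.2, 76.3 and 80.5 in WT-DES. *Herpud1* was at 239.8, 241, 425 and 207 FPKM in αERKO-veh and at 295, 306, 350.3 and 277 in αERKO-DES. WT-DES was lowest without overlap. *Herpud1* fell by 1.52 on the log2 scale (SE 0.17, adjusted p = 1.67e-06). *Ddit3* encodes CHOP, the transcription factor tied to unresolved ER stress, and its reads may be mixed with those of *Mars* on the opposite strand. *Ddit3* was at 42.5, 37.7, 39.2 and 40.04 FPKM in the WT-veh samples and at 33.8, 34.96, 36.8 and 29.9 in WT-DES. *Ddit3* was at 30.5, 30.2, 61.8 and 26.8 FPKM in αERKO-veh and at 44.3, 39.2, 34.95 and 31.3 in αERKO-DES. Each WT-DES value was below each WT-veh value by a small margin, within the spread of the αERKO samples. The change of *Ddit3* was −0.23 (SE 0.19, adjusted p = 0.289), and it passed the threshold with the same change when only WT-veh and WT-DES were fitted or when αERKO-veh sample 3 was left out, while with equal totals it was 0.19.

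A wider list of 98 genes of the same pathway was counted, of which 97 were in the table and 96 were tested. In WT-DES, 82 fell and 6 rose, with a median log2 change of −1.12. Of all tested genes 37.3% fell and 36.4% rose, with a median of −0.01, and these shares apply to each list below. For entry into the ER, 7 of 8 tested genes fell, led by *Serp1* (−2.55), which stabilizes chains at the translocon, and *Tram1* (−1.79), a translocon partner. For glycosylation and glycoprotein quality control, 11 of 11 fell, with *Krtcap2* at −2.11 and *Stt3b*, the other catalytic subunit of oligosaccharyltransferase, at −1.90. Among 22 further chaperones and disulfide enzymes 18 fell and 2 rose. Here *Agr2*, a disulfide isomerase of mucus-producing cells, was at 549.7, 534, 576 and 596 FPKM in WT-veh and at 28.0, 14.1, 8.04 and 17.0 in WT-DES, a change of −5.11 (SE 0.26, adjusted p = 1.04e-09), and *Fkbp11*, a prolyl isomerase of secretory cells, changed by −3.85. These falls were larger than that of any of the 51 genes.

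Of 29 genes of COPII, COPI and cargo transport, 25 fell and 2 rose, beside 37.3% and 36.4% of all tested genes. The largest changes were in *Tmed3* (−2.35) and *Mcfd2* (−2.06). Of 26 genes of the unfolded protein response and ERAD, 21 fell and 1 rose. *Derl3*, an ERAD component, was at 105, 123, 111 and 128 FPKM in WT-veh and at 3.95, 3.02, 2.91 and 7.14 in WT-DES, a change of −4.55 (SE 0.23, adjusted p = 8.86e-10). *Chac1*, a target of ATF4 and CHOP that degrades glutathione, changed by −4.14 (SE 0.46, adjusted p = 1.35e-06). *Xbp1* was at 232, 237, 235 and 228 FPKM in WT-veh and at 116, 99.2, 99.5 and 134 in WT-DES, a fall of 1.06 (SE 0.09, adjusted p = 1.2e-07). FPKM per gene does not show how much of its mRNA was spliced. *Bhlha15*, which encodes MIST1, a transcription factor of secretory cells, was picked out after its values were seen, at 203, 203, 201 and 214 FPKM in WT-veh and 8.85, 5.72, 16.1 and 30.4 in WT-DES, a change of −3.91 (SE 0.32, adjusted p = 6.01e-08). The 6 genes that rose were *Sec61a2*, *Fkbp7*, *Fkbp14*, *Sec23a*, *Sec24b* and *Creb3l1*, with changes from 0.30 to 0.72.

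Several genes that did not fall, or fell little, have a close relative that fell strongly. After this was seen, 7 pairs were described by the log2 ratio of FPKM + 1 within each sample, with no test since the pairs were chosen for it. In each pair the 4 WT-DES samples lay below the 4 WT-veh samples. The ratio of *Ero1lb*, the oxidase paralogue of *Ero1l* known from secretory cells, to *Ero1l* changed from 2.46 ± 0.13 (SD, n = 4) to 0.11 ± 0.53. *Ero1lb* itself was at 57.3, 53.0, 50.1 and 43.5 FPKM in WT-veh and at 8.95, 9.47, 9.26 and 11.1 in WT-DES, so the total for the oxidases was lower although *Ero1l* did not change detectably. *Sec61a1* relative to *Sec61a2*, which encode alternative channel subunits, went from 4.83 ± 0.12 to 2.49 ± 0.16. *Sec23b* relative to *Sec23a* went from 2.40 ± 0.15 to 0.57 ± 0.21, and *Sec11c* relative to *Sec11a* from 1.62 ± 0.02 to 0.07 ± 0.16. The remaining ratios moved less, by −1.12 for *Calr* to *Canx*, −0.78 for *Stt3b* to *Stt3a* and −0.53 for *Sar1b* to *Sar1a*. A ratio shows that the change of the genes was unequal, not which of them changed.

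**Figure D3:**
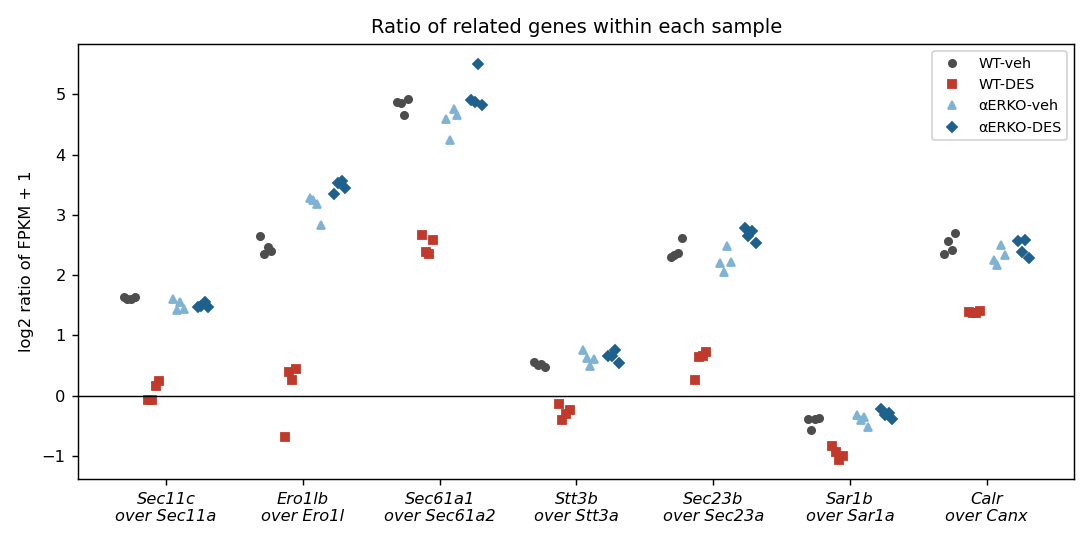
Log2 ratio of FPKM + 1 of 7 pairs of related genes within each of the 16 samples, with symbols for the 4 groups; higher points mean more of the gene named above. In each pair the WT-DES squares lie below all other samples, with Sec11c over Sec11a moving from 1.62 to 0.07 and Sec61a1 over Sec61a2 from 4.83 to 2.49 in the mean.

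The list was next set beside the secretory output of the SV, as 11 genes of its secreted products (*Svs1*, *Svs2*, *Svs3a*, *Svs3b*, *Svs4*, *Svs5*, *Svs6*, *Pate4*, *Spinkl*, *Ceacam10* and *Sva*). All 11 fell in WT-DES, by 2.68 (*Svs4*) to 4.98 (*Sva*) on the log2 scale with a median change of −4.44, against −1.52 for the 51 genes. *Svs4*, a major SV secretory protein gene, was at 10445, 10901, 10074 and 9914 FPKM in WT-veh and at 2002, 771, 1766 and 2476 in WT-DES. The summed FPKM of the 11 genes was 66167, 71969, 64568 and 61605 in WT-veh and 9163, 2710.0, 4868 and 8843 in WT-DES. The 51 genes summed to 11279.8, 11957, 12064 and 12206 FPKM in WT-veh and to 3615, 3106, 3461 and 3736 in WT-DES. Neither sum overlapped between these groups. As a share of all FPKM the secreted products went from a mean of 10.8% ± 1.13 to 1.54% ± 0.742 and the 51 genes from 1.94% ± 0.0825 to 0.848% ± 0.0589 (SD, n = 4).

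Between the WT-DES samples, the secreted products varied more than the 51 genes did. Between the lowest and the highest WT-DES sample the summed secreted products differed 3.38-fold and the sum of the 51 genes 1.20-fold. Gene by gene, the highest over the lowest WT-DES value was 2.85 (*Svs5*) to 9.95 (*Svs1*) for the secreted products, with a median of 5.47, and 1.06 (*Atf6*) to 2.15 (*Ero1l*) for the 51 genes, with a median of 1.26. In WT-veh the medians were 1.18 and 1.14. WT-DES samples 1 and 4 had the larger sums of secreted products and samples 2 and 3 the smaller. Samples 1 and 4 also had the larger sums of the 51 genes. This is a description of 4 samples, in which WT-DES sample 1 also had the most smooth muscle RNA.

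**Figure D4:**
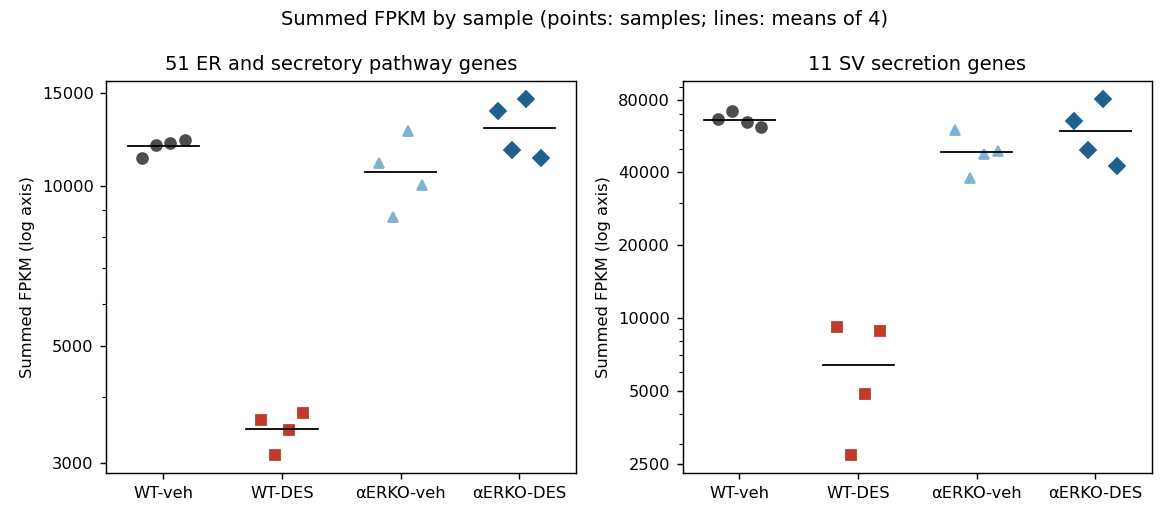
Summed FPKM of the 51 ER and secretory pathway genes (left) and of 11 genes of secreted SV products (right) in each sample, on log axes with different ranges; points are samples and lines the means of 4. WT-DES lies below the other groups in each panel, with samples from 3106 to 3736 FPKM on the left and from 2710.0 to 9163 FPKM on the right.

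Cell type markers moved as well. Of 8 epithelial markers 6 fell, 1 rose and 1 did not pass the test in WT-DES, with a median change of −0.66, from −1.07 (*Krt18*) to 0.25 (*Cdh1*), and summed levels of 1609 to 1790.0 FPKM in WT-veh and 884 to 1227 in WT-DES. All 6 fibroblast markers rose, with sums of 731 to 881 FPKM in WT-veh against 1916 to 2091 in WT-DES. Of 11 leukocyte markers 10 rose, and *Cd52*, which was at 2919 ± 78.0 FPKM (SD, n = 4) in WT-veh, fell. Since *Cd52* held most of the list's sum, the list is better read from its mean log2 level, with WT-veh between 3.07 and 3.51 and WT-DES between 4.46 and 5.47. The 5 tested plasma cell markers, which matter here because such cells are rich in ER, rose. *Sdc1*, which epithelial cells also express, held most of that list's sum, with a mean of 35.1 ± 1.99 FPKM (SD, n = 4) in WT-veh against 97.0 ± 26.8 after DES. The mean log2 level of the 6 plasma cell genes in the table lay between 1.42 and 1.52 in WT-veh and between 2.10 and 3.46 in WT-DES, with *Igj* at 3.37, 41.0, 7.21 and 18.4 FPKM in WT-DES. Of 5 smooth muscle markers 4 fell. All 6 genes of the anterior prostate list fell, with a median change of −4.29. This list summed to 7097 to 7458 FPKM in WT-veh and to 108 to 670 FPKM in WT-DES. Of 7 adipose markers 5 rose, and of 10 skeletal muscle markers 2 fell. The part of these cell types in the fall of the 51 genes was not tested.

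The 8 epithelial markers themselves changed with DES in WT, from −1.07 to 0.25, so their mean does not measure the amount of epithelium. As another scale, the values of each sample were centred on its mean of these markers, an alternative added after the data were seen. On this scale 44 of the 51 genes fell, *Ero1l* rose by 0.64 (adjusted p = 0.00227), and *Sec63*, *Canx*, *Sec24d*, *Ern1*, *Atf6* and *Ddit3* did not pass the test. Of all tested genes 13.9% fell and 61.4% rose on this scale, so *Ero1l* moved with the larger share. The median change was −0.95, beside 0.56 for all tested genes. The mean log2 level of the 51 genes minus that of the epithelial markers was 0.20, 0.24, 0.34 and 0.14 in WT-veh and −0.92, −0.99, −0.63 and −0.54 in WT-DES, without overlap. The αERKO-veh samples were at 0.38, 0.31, 0.44 and 0.29 and the αERKO-DES samples at 0.27, 0.25, 0.53 and 0.42.

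**Figure D5:**
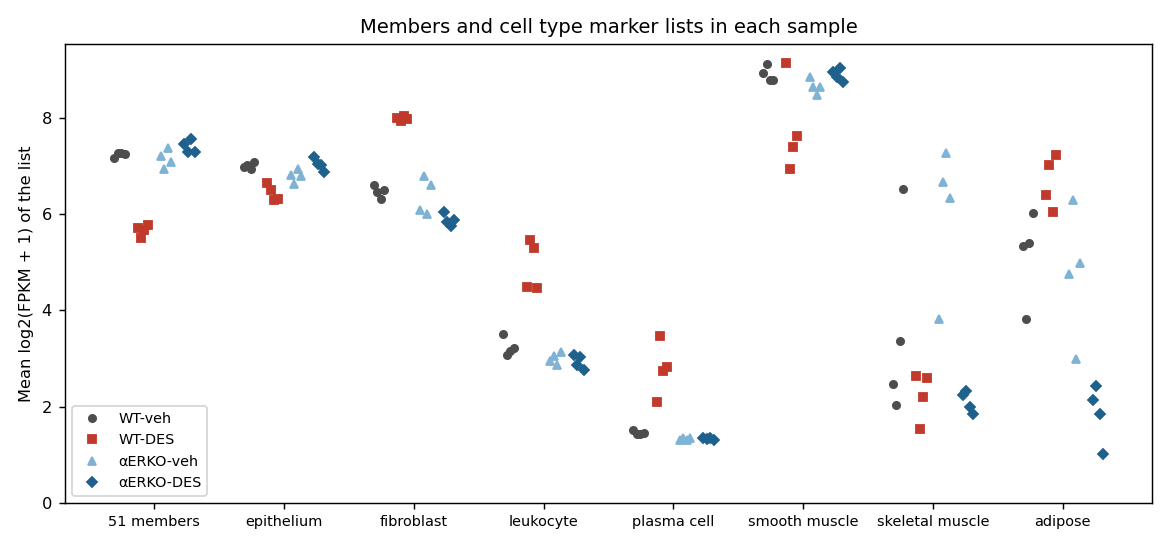
Mean log2(FPKM + 1) of the 51 genes and of 7 cell type marker lists in each sample, with symbols for the 4 groups. In WT-DES the 51 genes lie at 5.51 to 5.78 against 7.17 to 7.27 in WT-veh, while the epithelium list lies at 6.29 to 6.64 against 6.93 to 7.09 and the fibroblast, leukocyte and plasma cell lists lie above their WT-veh levels.

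Between the vehicle groups, a minority of the genes differed. In αERKO-veh relative to WT-veh, 8 of the 51 fell and 3 rose, where 15.2% of all tested genes fell and 10.8% rose. Without single samples the 8 became 2 to 11, with 2 without WT-veh sample 3 or αERKO-veh sample 2 and 4 without sample 4 of either group, and the 3 became 1 without αERKO-veh sample 2. The genes that fell were *Sec61b* (−0.57), *Ssr4* (−0.56), *Ssr2* (−0.47), *Atf4* (−0.47), *Spcs1* (−0.41), *Sec11c* (−0.40), *Srp9* (−0.40) and *Sec11a* (−0.28). The sensors *Ern1* (0.84) and *Atf6* (0.47) and the coat gene *Sec24d* (0.49) rose. On FPKM as deposited, none of the 10 chaperones or 6 disulfide enzymes passed the test, with changes from −0.28 to 0.21. Some chaperone genes did pass on other scales, as given below. The direction of the counts depended on the scale. With equal totals without the 20 highest genes 3 fell and 10 rose, against 5.62% and 20.1% of all tested genes. Relative to the epithelial markers 0 fell and 6 rose, against 2.28% and 17.3%. With quantile normalization 0 fell and 13 rose, against 9.05% and 9.83%, and with sample weights 22 fell and 3 rose, against 30.3% and 25.2%. *Sec24d*, *Ern1*, *Atf6*, *Sec63* and the chaperone genes *Canx* and *Dnajc3* rose with equal totals, relative to the epithelial markers and with quantile normalization. *Hspa5* rose by 0.38 with quantile normalization. The longest annotated transcripts had a median of 2294 nt for the 8 genes that fell (723 to 3992), 6946 nt for the 3 that rose (3903 to 7246), 2885 nt for the 40 others and 3244 nt for all tested genes with a length, so the ranges overlapped. After a length trend was removed only *Ssr4*, *Srp9* and *Sec24d* passed the test, with 6.69% of all tested genes lower and 4.80% higher. Of the 8 epithelial markers 3 fell and 1 rose in αERKO-veh, with a median change of −0.26 against −0.13 for the 51 genes. Of 10 skeletal muscle markers 3 rose, and the part of either cell type was not tested.

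Without ERα, the fall with DES was not seen. With DES in αERKO, 0 of the 51 genes fell and 2 rose, where 1.52% of all tested genes fell and 1.33% rose. They were *Sec23b*, with a change of 0.37 (SE 0.09, adjusted p = 0.0475), and the p24 receptor gene *Tmed10*, with 0.28 (SE 0.07, adjusted p = 0.0424). The values of 50 of the 51 genes were positive, with a median of 0.27 against 0.02 for all tested genes and a range from −0.30 (*Ern1*) to 0.52 (*Sdf2l1* and *Creld2*), and the epithelial markers had a median of 0.29 in the same comparison. Relative to the epithelial markers the median of the 51 genes was 0.03 and 0 passed the test, where 5.71% of all tested genes fell and 0.0250% rose. With sample weights 38 of the 51 rose, and 23.0% of all tested genes. Without single samples the count was 0 to 12, with 12 when αERKO-veh sample 3 was left out, where 2.78% of all tested genes rose. Adipose and skeletal muscle markers fell in αERKO-DES, 5 of 7 and 7 of 10, and their part was not tested. The secreted products did not pass the test in this comparison, with changes from 0.20 to 0.34.

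After the same exposure, the genotypes stood apart. In αERKO-DES relative to WT-DES, 49 of the 51 genes were higher and 0 lower, where 37.8% of all tested genes were higher and 36.2% lower, with a median log2 difference of 1.67, or 1.07 relative to the epithelial markers. For 49 genes every αERKO-DES sample lay above every WT-DES sample, as for 33.8% of all tested genes. *Sdf2l1* (3.75), *Creld2* (3.20) and *Manf* (2.85) differed the most, and *Ero1l* (0.08) and *Ddit3* (0.13) did not pass the test. Cell type markers differed too, with 6 of 8 epithelial markers higher in αERKO-DES and 10 of 11 leukocyte, 6 of 6 fibroblast, 7 of 7 adipose and 5 of 5 tested plasma cell markers lower, and their part was not tested. This comparison uses the same WT-DES samples as the one with WT-veh and is not independent of it. Mean *Hspa5* was 768 ± 124 FPKM in αERKO-DES and 155 ± 12.7 in WT-DES (SD, n = 4), and mean *Sec11c* was 507 ± 62.3 and 77.8 ± 12.8.

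The change with DES differed between the genotypes for most of the genes. In the interaction, the change in WT minus that in αERKO, 48 of the 51 genes were lower and 0 higher, where 36.2% of all tested genes were lower and 35.3% higher. The median difference of the changes was −1.78, with −1.09 after quantile normalization and −0.97 relative to the epithelial markers. The largest were those of *Sdf2l1* (−3.92, SE 0.27, adjusted p = 3.63e-08), *Creld2* (−3.36) and *Manf* (−3.13), and *Hspa5* was at −2.24 (SE 0.21, adjusted p = 5.01e-07). *Ern1* (−0.77, adjusted p = 0.053), *Ddit3* (−0.31, adjusted p = 0.326) and *Ero1l* (−0.02, adjusted p = 0.947) did not pass the test. The 11 secreted products were all lower in the interaction, from −5.31 to −2.89. Relative to the epithelial markers, 43 of the 51 genes were lower in the interaction and 1 higher, against 10.4% and 63.7% of all tested genes.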

How the data were processed

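Paired-end reads were aligned by the authors to mm10 with TopHat2 2.0.4, and the deposited values are FPKM per gene from Cufflinks 2.0.2 (tools per the labels). A further scaling between libraries, the gene annotation and the strand setting are not given in the sources used here. Depth is unknown from FPKM. FPKM was analysed as log2(FPKM + 1), which understates changes of low genes, for the 15988 genes with a mean above 1 in at least 1 group, in R 4.3.3 with limma 3.58.1 (1 model of 16 samples, variance trend, two-sided, Benjamini-Hochberg over all tested genes, call at an adjusted p of at most 0.05). The 51 genes, the lists and the tests were chosen with earlier results of these data known. Values per sample are given for the highest, the most and the least changed gene of each role, any gene called against its role, and *Hspa5*, *Dnajb9*, *Atf4*, *Atf6*, *Ern1*, *Ddit3* and *Herpud1*. The wider lists are given by counts and their 2 largest changes. *Xbp1*, *Svs4* and *Esr1* were always named. Gene positions and lengths are from GENCODE M21, promoters from RefSeq, both on GRCm38. The fit was tested on simulated data. Alternatives were a pseudocount of 0.1, no minimum or a mean above 5, a fit of the compared groups alone, a fit without the variance trend, sample weights, a replicate block, median-ratio, quantile and equal-total scaling without the top 20 genes, removal of a length trend, stricter calls, leaving out each sample, and centring on the epithelial markers. Figures were drawn with matplotlib 3.10.9.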

Additional observations from a re-analysis of the deposited data

Results flagged for a closer look

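In 7 of 104 groups of 4 samples checked, the highest or lowest value stood apart from the other 3 by Dixon's test, which chance does in about 1 in 20 groups. In αERKO-veh these were sample 2 for *Srp14* (165 FPKM, low) and sample 3 for *Ero1l* (9.60 FPKM), *Ddit3* (61.8 FPKM) and *Herpud1* (425 FPKM), all high. In WT-DES they were sample 1 for *Ero1l* (14.9 FPKM, high) and again sample 1 for *Herpud1* (101 FPKM, high). In WT-veh it was sample 4 for *Atf6* (19.8 FPKM, low).

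The change with DES in WT differed from that in αERKO by the interaction term (limma, adjusted p of at most 0.05) for 21 of the 24 genes given by sample. The log2 differences, WT minus αERKO, were −0.99 for *Sec63*, −2.91 for *Ssr4*, −1.54 for *Sec11a*, −3.09 for *Sec11c*, −1.38 for *Srp14* and −1.91 for *Srpr*. They were −1.32 for *Stt3a*, −2.12 for *Dad1*, −2.24 for *Hspa5*, −2.17 for *Calr*, −0.90 for *Canx*, −2.10 for *Dnajb9* and −3.92 for *Sdf2l1*. They were −2.40 for *Pdia6*, −2.09 for *P4hb*, −1.90 for *Sec23b*, −0.95 for *Sec24d*, −1.73 for *Sec13*, −1.98 for *Atf4*, −0.90 for *Atf6* and −1.71 for *Herpud1*. All were negative.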

How the results depend on the processing

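The count of 49 genes that fell in WT-DES was 44 relative to the epithelial markers, 48 with quantile normalization and 49 to 50 in the other alternatives run, single samples left out included. The median change of −1.52 was −1.0 with quantile normalization, −1.09 with equal totals and −0.95 relative to the epithelial markers, and −1.56 to −1.48 without single samples. *Ero1l* was the 1 gene that rose with equal totals and relative to the epithelial markers. Its change was −0.12 with sample weights, −0.17 with quantile normalization, −0.05 with the length trend removed and −0.15 to 0.18 without single samples, lowest without WT-DES sample 1. *Ddit3* changed by 0.09 with quantile normalization, 0.19 with equal totals, 0.25 with the length trend removed and 0.34 relative to the epithelial markers.

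In αERKO-veh relative to WT-veh the 8 lower genes (15.2% of all tested genes) were 5 with no minimum (5.34%), 22 with sample weights (30.3%), 3 with equal totals (5.62%), 2 with the length trend removed (6.69%) and 0 with quantile normalization (9.05%), relative to the epithelial markers (2.28%), at an adjusted p of 0.01 (3.51%) or with a ratio of 1.5 (2.63%), each share being that of all tested genes called lower. Without single samples they were 2 to 11, with 2 without WT-veh sample 3 (8.19%) or αERKO-veh sample 2 (5.85%) and 4 without sample 4 of WT-veh (7.99%) or of αERKO-veh (1606 of 15988 genes). The 3 higher genes (10.8%) were 13 with quantile normalization (9.83%), 10 with equal totals (20.1%), 6 relative to the epithelial markers (17.3%) and 1 with the length trend removed (4.80%), the adjusted p of 0.01 (2.27%) or the ratio of 1.5 (4.50%), and 1 to 3 without single samples (1 without αERKO-veh sample 2, 3.90%). The 2 genes called for DES in αERKO were 38 with sample weights (23.0% of all tested genes higher) and 0 with no minimum, only the compared groups, no variance trend, quantile normalization, equal totals, the epithelial markers, the stricter p or the ratio. Without single samples they were 0 to 12, with 12 without αERKO-veh sample 3 (2.78% higher), 5 without αERKO-veh sample 1 (4.45%), 4 without WT-DES sample 1 (3.75%), 1 without sample 4 of WT-veh or WT-DES and 0 without samples 1 to 3 of WT-veh, sample 3 of WT-DES, samples 2 or 4 of αERKO-veh or samples 1 to 3 of αERKO-DES. Relative to the epithelial markers 2 genes were lower in αERKO-DES than in WT-DES, as were 62.9% of all tested genes, and 1 was higher in the interaction, as were 63.7%. The median in the interaction, −1.78, was −1.09 with quantile normalization and −0.97 relative to the epithelial markers. The causes were not tested.

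Deviations of samples with the same replicate number had correlations of −0.21 to 0.28, beside −0.30 to 0.26 for samples with other numbers. The numbers thus showed no sign of pairing, though a shared litter or batch could go unseen. With a replicate block 10 genes were lower in αERKO-veh, and the other counts of calls were 49, 3, 2, 49 and 48 as without it. Of 720 values of single genes recomputed, 702 kept their direction and call, 6 lost the call, 4 gained it and 8 changed sign. FPKM holds no depth, so counting error could not be given.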

Other observations

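Within αERKO-veh, sample 3 had the highest values for several ER stress genes, which were chosen after their values were seen. *Chac1*, a target of ATF4 and CHOP, was at 81.5 FPKM there against 13 to 31.9 in the 3 other samples. *Trib3*, another such target, was at 11.9 FPKM against 3.34 to 5.06, and *Ddit3* itself at 61.8 against 26.8 to 30.5. The ER lumen genes *Creld2* (378 against 137 to 165 FPKM), *Sdf2l1* (381 against 182 to 233), *Hyou1* (201 against 113 to 124) and *Hspa5* (860.0 against 495 to 624) were also highest there, as was *Herpud1* (425 against 207 to 241). *Atf4* was at 292 FPKM against 209 to 271. *Xbp1* (193 FPKM), *Dnajb9* (99.7 FPKM) and *Asns* (129 FPKM) lay within the range of the other 3 samples. The same sample had the highest summed skeletal muscle markers (2317 FPKM) and the lowest summed adipose markers (145 FPKM) of its group, and their part in these values was not tested.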
